A study of Mus musculus with 36 samples.

Results

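Syk and Zap70, the 2 SYK-family kinases, were described here with the adaptors, exchange factors and phospholipases that work directly beside them. The 10 genes were Syk, Zap70, Lcp2, Lat, Lat2, Vav1, Vav3, Plcg1, Plcg2 and Sh2d2a. They were chosen by symbol out of 31323 symbols that occur in all 4 deposited expression tables. The choice was made with earlier results of these data known. Each table held all 10, and all 10 passed the filter on low values in every comparison.

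The study measured messenger RNA in mouse natural killer (NK) cells in 36 samples, 12 groups of 3 replicates. Values are TPM, a unit of transcript abundance that is corrected for gene length and scaled by the total of each library. The first table held 6 groups of splenic CD27-CD11b+ NK cells, taken from wild-type (WT, B2m+/+, C57BL/6) or B2m-/- mice. In each genotype 3 subsets were sorted: TP cells, positive for Ly49C, Ly49I and NKG2A, SP cells, positive for Ly49I alone, and TN cells, negative for all 3 of these inhibitory receptors for MHC class I. B2m encodes the light chain of MHC class I. The second table held NK cells purified from WT splenocytes after 22 hours with vehicle or with ionomycin, an ionophore that lets calcium into cells. The third held WT splenic NK cells after 48 hours, either left in medium as the control or on a plate coated with an antibody pair. The antibodies of a pair were to NKp46 and NKG2D or to NKp46 and DNAM-1. The fourth held CD27-CD11b+ NK cells from subcutaneous MC38 B2m-/- tumours 10 days after injection into C57BL/6 mice, labelled WT, without a comparison group. The labels give no ages or sexes. They call the replicates biological without saying whether each was a separate mouse, so p-values measure the spread between these samples.

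In the antibody table the sample titles and the column names disagreed on the treatment of 6 of 9 samples. Groups were taken from the column names. All groups of a comparison carried the same batch date, and no comparison was made across tables. B2m ran from 2915 to 3420 TPM in the 9 WT libraries of the sorted subsets and from 73.9 to 128 TPM in the 9 B2m-/- libraries, so every library matched its genotype label. The NK marker list (Ncr1, Klrb1c, Klre1, Nkg7, Eomes, Tbx21, Il2rb, Gzma, Prf1) summed to between 6600 and 22549 TPM in each of the 36 libraries. Depth is unknown, because TPM keep no record of it. The deposited TPM summed to between 934292 and 948786 per library in the sorted subsets and to 1e+06 in the other tables. Between 12290 and 18096 genes were above 0 per library. In the antibody and ionomycin tables this number differed by treatment without overlap. It was 13555, 14674 and 14604 in the medium libraries and 16107 to 18096 in the antibody libraries. With vehicle it was 13904 to 14578 and with ionomycin 15157 to 15483. The part of this difference in the values of these tables was not tested.

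Activating receptors on NK cells signal through small adaptors whose ITAM motifs, once phosphorylated, recruit SYK or ZAP70. These kinases phosphorylate the scaffolds LAT, LAT2 (also called NTAL) and SLP-76, the product of Lcp2. On those scaffolds assemble the VAV exchange factors and the enzymes PLC-gamma1 and PLC-gamma2, whose products release calcium from stores and activate protein kinase C. T cells rely mainly on ZAP70, LAT and PLC-gamma1, and B cells on SYK and PLC-gamma2, whereas NK cells use both kinases. Sh2d2a encodes TSAd, an SH2-domain adaptor of T and NK cells that binds the kinase LCK.

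The promoters of Zap70, Syk and Plcg2 are shown because these genes had the largest called changes with ionomycin in each direction among the 8 of 10 genes that matched the promoter table. Sequences are from RefSeq, build GRCm38.p6, and cover 250 bases before to 50 bases after the most 5′ listed start, on the gene's strand. Capitals mark GGAAA or its reverse complement TTTCC, the core bound by NFAT factors, which calcium activates.
Zap70, chr1:36761548-36761847, plus strand: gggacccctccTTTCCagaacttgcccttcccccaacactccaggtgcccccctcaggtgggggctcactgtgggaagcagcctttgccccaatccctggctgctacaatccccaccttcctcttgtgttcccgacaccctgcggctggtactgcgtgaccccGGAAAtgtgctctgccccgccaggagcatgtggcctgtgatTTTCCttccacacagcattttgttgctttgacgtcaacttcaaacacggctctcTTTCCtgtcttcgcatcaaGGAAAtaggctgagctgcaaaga
Syk, chr13:52583187-52583486, plus strand: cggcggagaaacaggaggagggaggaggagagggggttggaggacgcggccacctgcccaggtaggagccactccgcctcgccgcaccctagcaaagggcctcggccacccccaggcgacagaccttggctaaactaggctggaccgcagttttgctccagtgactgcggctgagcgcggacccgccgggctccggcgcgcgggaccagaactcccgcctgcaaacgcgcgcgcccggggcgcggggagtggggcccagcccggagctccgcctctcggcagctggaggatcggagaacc
Plcg2, chr8:117498025-117498324, plus strand: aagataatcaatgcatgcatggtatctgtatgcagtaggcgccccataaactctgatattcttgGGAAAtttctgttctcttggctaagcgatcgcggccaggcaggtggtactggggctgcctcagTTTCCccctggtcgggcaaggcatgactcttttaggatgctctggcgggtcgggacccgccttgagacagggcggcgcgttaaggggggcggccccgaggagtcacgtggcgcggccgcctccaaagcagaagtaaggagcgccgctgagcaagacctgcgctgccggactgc

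The Zap70 window held 5 GGAAA matches on both strands together, the Plcg2 window 2 and the Syk window 0. Of 32851 mouse promoters of the same length, 61.3% held at least 1 such match. Zap70 also held 1 match to the cyclic AMP response element TGACGTCA, which overlaps none of its GGAAA matches and occurs in 1.79% of promoters. The AP-1 motif TGANTCA and the NR4A motif AAAGGTCA were matched 0 times in these 3 windows, on either strand. The RUNX motif TGTGGT was matched 0 times as well. These 3 motifs occur in 7.81%, 1.51% and 16.8% of promoters. A second listed start of Syk, at chr13:52596632-52596931, held 2 GGAAA matches. The 2 further listed starts of Zap70 held 0 each, with 1 RUNX match at one and 1 NR4A match at the other. These matches describe letters only, and the tables give 1 value per gene, so they do not tell which start was used.

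With ionomycin the 2 kinases changed in opposite directions. Zap70 was 718, 714 and 847 TPM in the 3 ionomycin libraries and 154, 227 and 212 TPM in the 3 vehicle libraries. Syk was 39.6, 35.5 and 33.8 TPM with ionomycin and 102, 102 and 125 TPM with vehicle. In both genes the groups were far from overlapping, with every ionomycin library above every vehicle library for Zap70 and below for Syk. Zap70 rose by 1.95 on the log2(TPM + 1) scale (SE 0.21, 3.87-fold, adjusted p = 0.00367) and Syk fell by 1.57 (SE 0.24, 2.96-fold lower, adjusted p = 0.0128). Tests are limma's, with Benjamini-Hochberg adjustment over all 14372 genes tested in that table, and a gene is called at an adjusted p under 0.05.

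The ratio of Zap70 to Syk TPM, which compares levels per length, was 1.81 ± 0.37 with vehicle and 21.1 ± 3.58 with ionomycin (SD, n = 3). It ran from 1.51 to 2.23 in the vehicle libraries and from 18.1 to 25.1 in the ionomycin libraries. Their summed level was 307 ± 44.1 TPM with vehicle and 796 ± 73.7 TPM with ionomycin. Most of the summed kinase transcript was thus Zap70 in both groups, and the share of Syk was smaller with ionomycin.

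Of the 10 genes, 6 were called with ionomycin, against a background of 2.91% of all genes tested. Called higher were 2 (background 1.66%), Zap70 and Sh2d2a, and called lower were 4 (background 1.25%), Syk, Plcg2, Vav1 and Lat2. The median log2 change was -0.67 over the 10 genes and -0.0044 over all genes tested. Because the samples are bulk libraries of sorted cells, fewer cells of a type and less RNA per cell cannot be told apart.

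**Figure D1:**
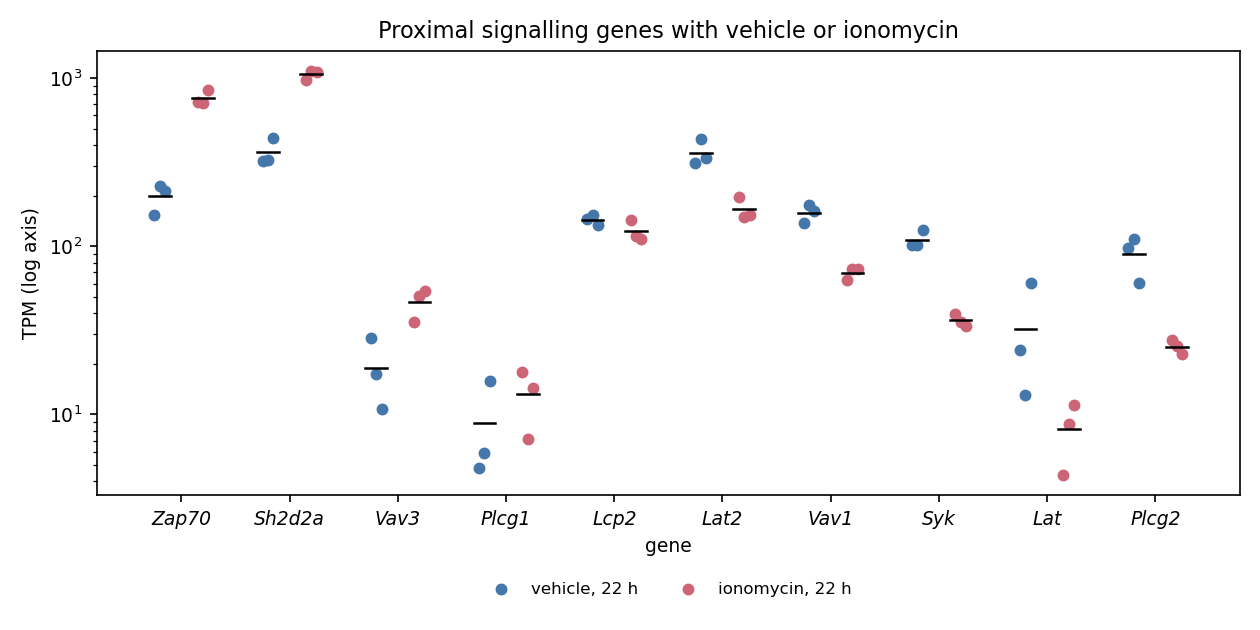
TPM (log axis) of the 10 genes in each library with vehicle (blue) or ionomycin (red) after 22 hours; points are single libraries and black bars are means of 3. The ionomycin points lie above all vehicle points for Zap70, Sh2d2a and Vav3, and below them for Lat2, Vav1, Syk, Lat and Plcg2.

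Among the adaptors, Sh2d2a was 971, 1102 and 1081 TPM with ionomycin and 321, 326 and 440.4 TPM with vehicle. It had the highest mean of the 10 genes in both groups, but with vehicle its libraries overlapped those of Lat2. Sh2d2a rose by 1.55 on the log2 scale (SE 0.20, 2.92-fold, adjusted p = 0.00675 by limma). Lat2 was 196, 149.5 and 153 TPM with ionomycin and 311, 431 and 336 TPM with vehicle. It fell by 1.11 (SE 0.22, 2.15-fold lower, adjusted p = 0.0346), with no overlap between groups. Its relative Lat was lower too, at 4.35, 8.74 and 11.4 TPM against 24, 13.1 and 60.1 TPM. The vehicle libraries differed so widely in Lat that its log2 difference of -1.69 (SE 0.60) was not called (adjusted p = 0.224). Lcp2, which encodes SLP-76, overlapped between groups, at 143, 116 and 110.5 TPM with ionomycin and 145, 153 and 134 TPM with vehicle. Its log2 difference was -0.23 (SE 0.21, adjusted p = 0.678).

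Within the VAV and PLC-gamma pairs the 2 members also stood on opposite sides of 0. Vav1, the VAV protein of blood cells, was 62.6, 73.7 and 73 TPM with ionomycin and 137, 176 and 162 TPM with vehicle, and fell by 1.17 (SE 0.22, 2.25-fold lower, adjusted p = 0.0272 by limma). Vav3 was 35.4, 50.9 and 54.5 TPM with ionomycin and 28.3, 17.5 and 10.8 TPM with vehicle. Its groups did not overlap, but its log2 difference of 1.35 (SE 0.40) was not called (adjusted p = 0.137). The ratio of Vav1 to Vav3 TPM was 9.98 ± 5.10 with vehicle and 1.52 ± 0.22 with ionomycin (SD, n = 3).

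Plcg2 was 27.8, 25.4 and 22.8 TPM with ionomycin and 97.7, 110.5 and 60.8 TPM with vehicle. Even the lowest vehicle library was above every ionomycin library, and Plcg2 fell by 1.74 (SE 0.30, 3.35-fold lower, adjusted p = 0.0215 by limma). Plcg1 was low and overlapping, at 18, 7.14 and 14.4 TPM with ionomycin and 4.81, 5.89 and 15.9 TPM with vehicle. Its log2 difference was 0.60 (SE 0.58, adjusted p = 0.688).

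The order of the levels per length differed between the 2 cultures. With vehicle the order of means was Sh2d2a, Lat2, Zap70, Vav1, Lcp2, Syk, Plcg2, Lat, Vav3 and Plcg1. Only Lat2 over Zap70, Lcp2 over Syk and Plcg2 over Lat were steps in which all libraries of the higher gene exceeded all of the next. With ionomycin the order was Sh2d2a, Zap70, Lat2, Lcp2, Vav1, Vav3, Syk, Plcg2, Plcg1 and Lat. There the steps from Vav3 to Syk and from Plcg1 to Lat were the only overlapping ones.

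Each of the ionomycin calls was lost in at least 1 of the fits that left out 1 library, which have fewer replicates. Zap70 stayed called in 5 of 6 fits that left out 1 library, and lost its call without the third ionomycin library (log2 1.87, adjusted p = 0.0513 by limma). Sh2d2a stayed called in 3 of 6, and Syk, Plcg2, Vav1 and Lat2 in 2 of 6 each, those without the first or the third vehicle library. No change of sign occurred in any of these fits. Over all genes, 80, 49 and 43 were called without ionomycin replicates 1, 2 and 3 and 143 without the second vehicle library, in place of 418. Without the first or the third vehicle library the number was higher, 635 and 712. Vav3 was called (log2 1.68, adjusted p = 0.0452) without the first vehicle library. With no trend in the variance estimate only Zap70 stayed called, and with no filter on low values Lat2 was not (adjusted p = 0.0758).

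Of the T-cell, B-cell and myeloid marker sums, only the T-cell sum did not overlap between ionomycin and vehicle. In each of these lists 0 genes were called by limma. The sum of 9 T-cell markers was 14.1 to 29.2 TPM with ionomycin and 2.24 to 7.87 TPM with vehicle. Of these, Cd6 ran from 0.82 to 11.9 TPM with ionomycin and from 0 to 0.77 TPM with vehicle. Cd3d ran from 3.74 to 10.9 TPM against 0 to 3.81 TPM, and Cd3g from 0 to 19.3 TPM against 0 to 7.63 TPM. Cd3e and Cd5 reached 1.84 and 4.43 TPM with ionomycin and 0.24 and 1.21 TPM with vehicle. Trac, Cd4, Cd8a and Cd8b1 were listed at 0 in all 6 libraries. The B-cell list summed to 0.58 to 7.31 TPM with ionomycin and 6.76 to 10.9 TPM with vehicle. Its members Ms4a1 and Pax5 were listed at 0 in all 6 libraries, while Cd22 ran from 0.58 to 7.31 TPM with ionomycin and from 0.85 to 10.9 TPM with vehicle. Myeloid markers summed to 2.18 to 121 TPM with ionomycin and 0 to 286 TPM with vehicle. The NK list summed to 6600 to 8629 TPM with ionomycin and 9359 to 15987 TPM with vehicle, and its members Ncr1 (log2 -2.64, adjusted p = 0.0045 by limma) and Gzma (log2 -2.21, adjusted p = 0.00767) fell. Cd27, a receptor of less mature NK cells, rose (log2 2.09, adjusted p = 0.0337). Their part in the changes of the 10 genes was not tested.

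The other genes of the pathway were given by 4 lists chosen for their roles. Of all genes tested, 1.66% were called higher with ionomycin and 1.25% lower. All 4 receptor adaptors had negative estimates (median log2 change -1.16), and 3 of 4 fell. Fcer1g went from 1075 ± 194 TPM with vehicle to 394.9 ± 72.9 TPM with ionomycin (log2 -1.44, adjusted p = 0.0124 by limma), and Cd247 from 169 ± 41.7 to 59.6 ± 21 TPM (log2 -1.51, adjusted p = 0.0384). Tyrobp, which encodes DAP12, went from 812 ± 113 to 439 ± 28.6 TPM (log2 -0.88, adjusted p = 0.0457). These proteins carry the ITAMs that SYK and ZAP70 bind.

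Of 20 partners of the LAT and SLP-76 complex, 0 rose (background 1.66%) and 2 fell (background 1.25%), with a median log2 change of -0.25. Grap2, encoding GADS, which links SLP-76 to LAT, went from 56.9 ± 20.6 to 4.57 ± 3.43 TPM (log2 -3.56, adjusted p = 0.0189 by limma). Skap1, an adaptor in integrin signalling, went from 244 ± 38.9 to 68.9 ± 1.28 TPM (log2 -1.80, adjusted p = 0.00515). Of 13 genes of the lipid and calcium steps, 1 rose and 1 fell (median log2 change -0.67). Pik3r1, a regulatory subunit of PI 3-kinase, went from 358 ± 222 to 1554 ± 67.9 TPM (log2 2.33, adjusted p = 0.0263). Pik3ap1, the adaptor BCAP, went from 215 ± 40 to 83.3 ± 11.1 TPM (log2 -1.35, adjusted p = 0.0211).

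Of 10 attenuators of SYK and ZAP70 signalling, 3 rose (background 1.66%) and 2 fell (background 1.25%), with a median log2 change of -0.022. The 2 UBASH3 genes, whose products act against these kinases, went opposite ways. Ubash3b, encoding STS-1, rose from 26.1 ± 11.2 to 259 ± 36.3 TPM (log2 3.35, adjusted p = 0.00294 by limma), and Ubash3a, encoding STS-2, fell from 39.4 ± 25.5 to 1.28 ± 1.11 TPM (log2 -4.06, adjusted p = 0.0215). Ptpn22, a phosphatase of ZAP70 and Src-family kinases, rose from 472 ± 150 to 1570 ± 157 TPM (log2 1.78, adjusted p = 0.0108). Cblb, a ubiquitin ligase of activated kinases, rose from 139 ± 59.4 to 379 ± 23.8 TPM (log2 1.54, adjusted p = 0.0452). Dok2, an adaptor of inhibitory signalling, was the other gene that fell (log2 -1.46, adjusted p = 0.0255); it fell outside the naming rule and was named after its values were seen. Among these pathway genes Ubash3b kept its call in all 11 alternative fits and Skap1 in 9. The other 10 kept it in 3 to 6 of 11, and none changed sign. All of them but Ubash3b lost the call without ionomycin replicate 2 and without replicate 3.

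**Figure D2:**
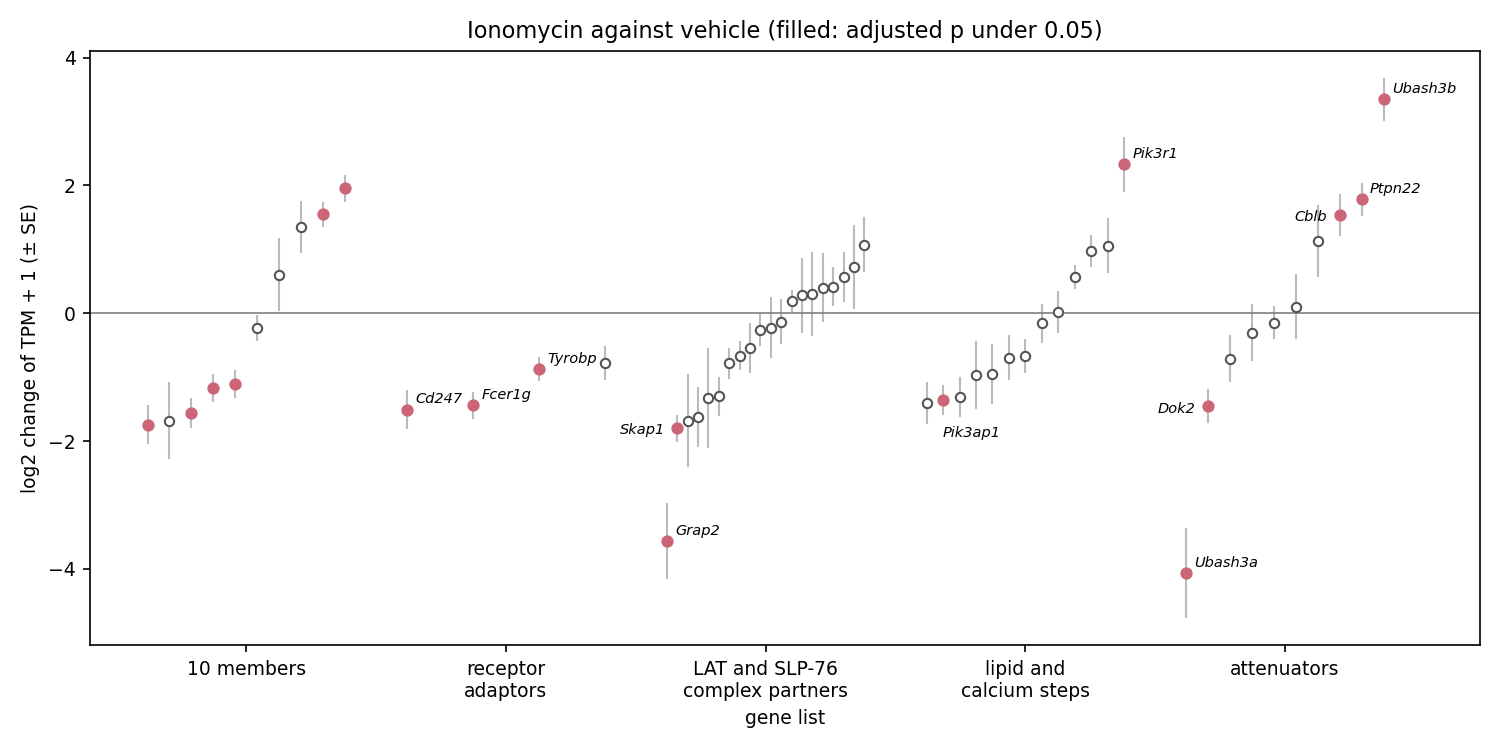
Log2 change of TPM + 1 with ionomycin against vehicle (limma estimate with SE) for the 10 genes and the 4 pathway lists, each list sorted by its estimate; filled red points are called at an adjusted p under 0.05 and open points are not. Of the receptor adaptors 3 of 4 are filled and below 0, and the attenuators reach from -4.06 (Ubash3a) to 3.35 (Ubash3b).

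The antibody pairs left all 10 genes uncalled. With antibodies to NKp46 and NKG2D, 0 of 10 were called by limma against a background of 0.431% of 13689 genes, and 3 of 10 had an unadjusted p under 0.05 (15.1% of all genes did). With antibodies to NKp46 and DNAM-1, 0 of 10 were called against 0.782%, with 1 of 10 at an unadjusted p under 0.05 (18% of all genes). Between the 2 antibody pairs 0 of 10 were called against 0.0146%, and 0 of 10 had an unadjusted p under 0.05 (1.22% of all genes). The backgrounds with medium changed when 1 library was left out. Without the third medium library 311 and 604 genes were called in place of 59 and 107. Fewer were called without antibody replicate 1, 2 or 3: 31, 37 and 31 genes for the NKG2D pair and 45, 26 and 30 for the DNAM-1 pair. Of the 47 genes of the 4 pathway lists, 0 were called in these 3 comparisons, and 6, 11 and 0 had an unadjusted p under 0.05. The 2 comparisons with medium share their medium libraries.

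Lat showed the largest antibody estimates of the 10 genes. Medium libraries held 66.6, 33.1 and 45.5 TPM of Lat, libraries on the NKG2D pair 33, 20.1 and 22.9 TPM, and libraries on the DNAM-1 pair 24.7, 27.5 and 24.6 TPM. All 6 antibody libraries lay below all 3 medium libraries, the closest being 33.04 against 33.09 TPM. The log2 differences were -0.88 (SE 0.27, adjusted p = 0.184) and -0.84 (SE 0.27, adjusted p = 0.159) by limma. The medium libraries spread from 33.1 to 66.6 TPM. T-cell markers summed to 35.5 to 75 TPM in medium, 25.4 to 33.3 TPM on the NKG2D pair and 23.9 to 45.3 TPM on the DNAM-1 pair, with Trac, Cd4 and Cd8b1 listed at 0 in all 9. Their part in the Lat values was not tested.

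Zap70 was 130.4, 139 and 140.01 TPM in medium. It was 156, 179 and 151 TPM on the NKG2D pair and 156, 153 and 155 TPM on the DNAM-1 pair. No antibody library overlapped the medium libraries, but the log2 differences were small, 0.24 (SE 0.10, adjusted p = 0.294) and 0.18 (SE 0.10, adjusted p = 0.384). Syk was 68.2, 74.1 and 87 TPM in medium and ran from 62.5 to 83.3 TPM on antibodies, overlapping the medium range. The Zap70 to Syk ratio was 1.80 ± 0.16 in medium, 2.18 ± 0.23 on the NKG2D pair and 2.21 ± 0.22 on the DNAM-1 pair (SD, n = 3). The ratio in each antibody library, 1.96 to 2.46, was above each in medium, 1.61 to 1.91. The ratio itself was not tested.

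Sh2d2a was again the most abundant of the 10 genes. Its mean was 423 ± 60 TPM in medium, 504 ± 40.8 TPM on the NKG2D pair and 464 ± 30.4 TPM on the DNAM-1 pair (SD, n = 3). Its log2 difference from medium was 0.26 (SE 0.11, adjusted p = 0.319) and 0.14 (SE 0.11, adjusted p = 0.552). Vav3 was 41.3, 53.8 and 15.6 TPM in medium and 21.1 to 28.1 TPM on antibodies. The third medium library lay below all others, and without it Vav3 was called lower with NKp46 and DNAM-1 antibodies (log2 -0.97, adjusted p = 0.0385). Lat2, Lcp2, Vav1, Plcg1 and Plcg2 had estimates between -0.23 and 0.16 in both comparisons with medium. Grouping the samples by their titles instead called 0, 1 and 0 of all 13689 genes in the 3 comparisons, none of them among the 10.

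**Figure D3:**
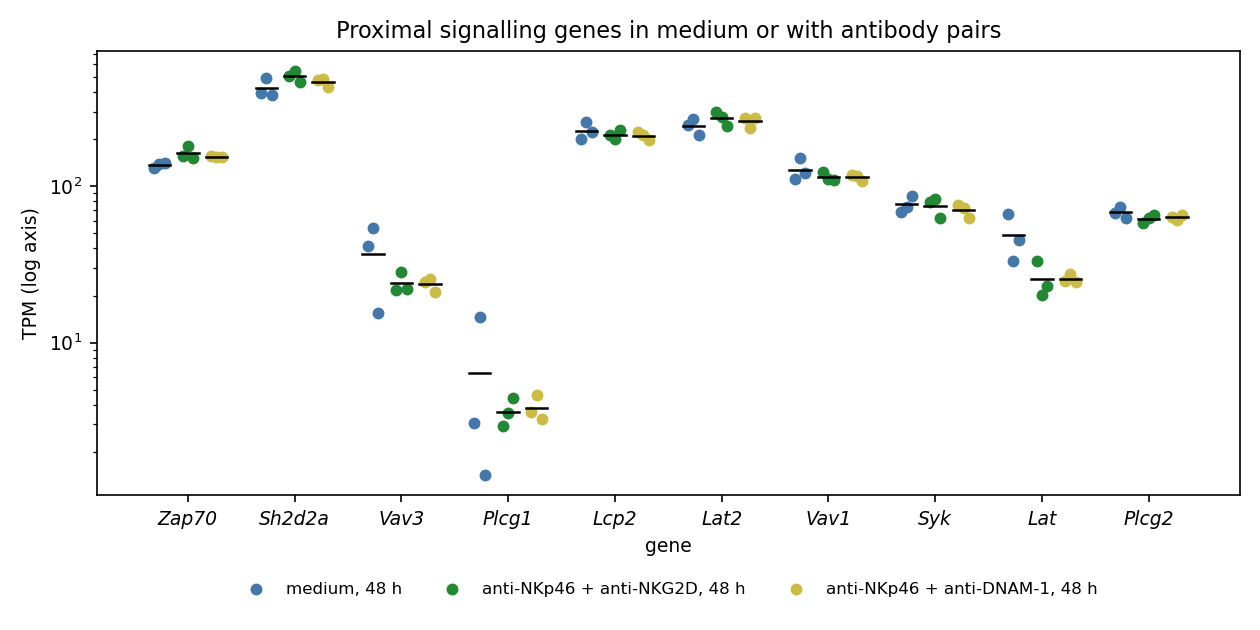
TPM (log axis) of the 10 genes in each library after 48 hours in medium (blue), on antibodies to NKp46 and NKG2D (green) or to NKp46 and DNAM-1 (yellow); points are single libraries and black bars are means of 3. All antibody points lie below all medium points for Lat and above them for Zap70, while the other 8 genes overlap in at least 1 of the 2 pairs.

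In the sorted splenic subsets none of the 10 genes was called in any comparison of receptor subsets or genotypes. Over all 18 libraries Syk ran from 195 to 268 TPM and Zap70 from 181 to 259 TPM, and their ratio stayed between 0.818 and 1.05. In WT cells the order of means was the same for the top and bottom of the list in all 3 subsets: Lat2 was highest, Sh2d2a followed, and Plcg2, Lat, Vav3 and Plcg1 closed it. Lcp2, Syk, Zap70 and Vav1 lay between, with overlapping neighbours in most steps. In B2m-/- cells Sh2d2a stood above Lat2 by its mean in all 3 subsets, with overlapping libraries.

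Between WT TN and TP cells 0 of 10 were called by limma against a background of 1.31% of 12018 genes, while 4 of 10 had an unadjusted p under 0.05 (12.5% of all genes did). Zap70 was 255, 247 and 232 TPM in TN cells, 218, 200.5 and 199 TPM in SP cells and 199, 190 and 181 TPM in TP cells. Every TN library was above every SP and TP library. The log2 difference of TN from TP was 0.36 (SE 0.09, adjusted p = 0.0681). Plcg2 had the reverse order, at 120.1, 131 and 108 TPM in TN cells, 139.6, 139.1 and 130.4 TPM in SP cells and 163, 166 and 139.9 TPM in TP cells. Its TN and TP libraries did not overlap, and the log2 difference was -0.38 (SE 0.09, adjusted p = 0.0613).

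Syk was 244, 244 and 242 TPM in WT TN cells and 222, 195 and 215 TPM in WT TP cells (log2 0.21, SE 0.08, adjusted p = 0.223). Lat2 was 422, 419.5 and 450.3 TPM in TN cells and 369, 377 and 349 TPM in TP cells (log2 0.24, SE 0.09, adjusted p = 0.256). Both genes were higher in all 3 TN libraries, by less than the test could call over all genes. Vav1, Sh2d2a, Lcp2, Lat and Vav3 had log2 differences between -0.09 and 0.15, and the variable Plcg1 one of -0.95 (SE 0.60, adjusted p = 0.560). Rescaling the libraries by the median of gene ratios brought Zap70 (adjusted p = 0.0466) and Plcg2 (adjusted p = 0.0488) past the threshold. Plcg2 also passed with no filter on low values (adjusted p = 0.0419) and without the third TP library (0.0382) or the second TN library (0.0407).

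Between WT SP and TP cells 0 of 10 were called (background 0.191%) and 0 of 10 had an unadjusted p under 0.05 (7.71% of all genes). Between WT TN and SP cells 0 of 10 were called (background 0.383%), with 4 of 10 at an unadjusted p under 0.05 (12.1% of all genes): Zap70 (log2 0.25, adjusted p = 0.275 by limma), Lat2 (0.20, adjusted p = 0.3799), Syk (0.18, adjusted p = 0.357) and Plcg1 (-1.31, adjusted p = 0.403). In B2m-/- cells 0 of 10 were called for TN against TP (background 0.524%, 1 of 10 at an unadjusted p under 0.05), for SP against TP (0.2%, 1 of 10) and for TN against SP (0.0416%, 0 of 10). Of all genes 6.43%, 2.93% and 2.77% had an unadjusted p under 0.05 in these 3 comparisons.

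Plcg2 was 109.9, 125 and 121 TPM in B2m-/- TN cells and 142, 136 and 134 TPM in B2m-/- TP cells (log2 -0.21, SE 0.09, adjusted p = 0.757). Zap70 was 228, 246 and 254 TPM in those TN cells and 213, 239 and 201 TPM in those TP cells, overlapping (log2 0.16, SE 0.09, adjusted p = 0.873). The test of the difference between genotypes in the TN against TP change called 0 of 10 (background 0.025%, 0 of 10 at an unadjusted p under 0.05, which 6.27% of all genes had). For Zap70 that difference, B2m-/- minus WT, was -0.21 (SE 0.13, adjusted p = 0.846) and for Plcg2 0.18 (SE 0.13, adjusted p = 0.869). A difference between genotypes in these changes was thus not shown.

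Between genotypes 0 of 10 were called in TP cells (background 1.59%), in SP cells (1.35%) and in TN cells (0.716%). By limma 2, 3 and 3 of 10 had an unadjusted p under 0.05, against 11.8%, 11.7% and 10.5% of all genes. Sh2d2a was the gene with the smallest p in SP cells, at 368, 395 and 360.07 TPM in B2m-/- and 309, 329 and 269.9 TPM in WT cells (log2 0.31, SE 0.10, adjusted p = 0.153). It did not overlap there, and its estimate was 0.24 in TP cells (adjusted p = 0.309) and 0.22 in TN cells (adjusted p = 0.415). Syk in SP cells was 258, 245 and 256 TPM in B2m-/- and 221, 217 and 208 TPM in WT cells (log2 0.23, SE 0.08, adjusted p = 0.170). Vav3 in SP cells was 9.25, 17.5 and 9.73 TPM in B2m-/- and 15.7, 18.6 and 29.1 TPM in WT cells, overlapping (log2 -0.76, SE 0.31, adjusted p = 0.322). In TN cells Lat2 averaged 364 TPM in B2m-/- and 430 TPM in WT cells, without overlap (log2 -0.25, SE 0.09, adjusted p = 0.307). Its estimate was -0.18 in TP cells (adjusted p = 0.435), also without overlap, and -0.0055 in SP cells, overlapping. Vav1 in TN cells averaged 187 TPM in B2m-/- and 214 TPM in WT cells, without overlap (log2 -0.19, adjusted p = 0.469).

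**Figure D4:**
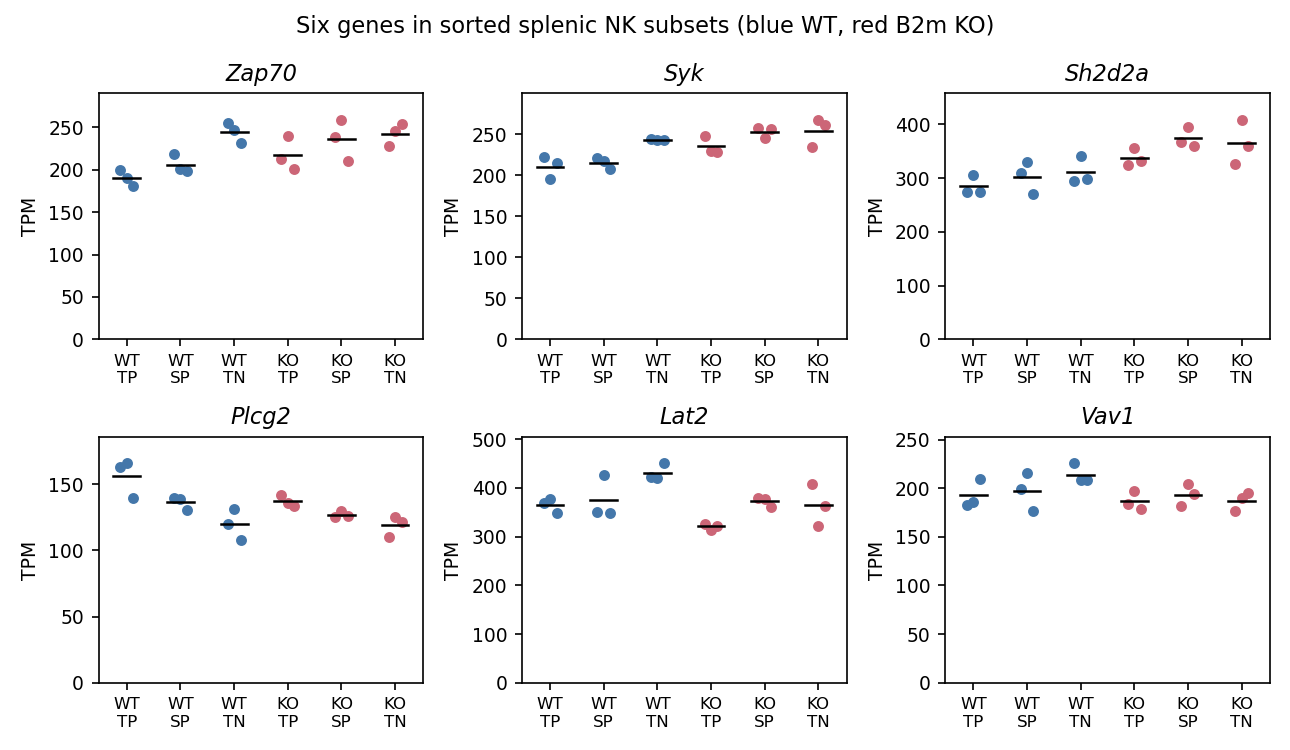
TPM of 6 of the genes in the 3 sorted subsets of WT (blue) and B2m-/- (KO, red) mice; points are single libraries, black bars are means of 3, and each vertical axis starts at 0. Among WT groups TN cells have the highest mean of Zap70 and the lowest of Plcg2, neither called, and Sh2d2a lies above its WT counterpart by mean in each B2m-/- subset.

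Other members of the pathway did pass the test in these subsets. Maturation markers moved in the same comparison: in WT TN against TP cells, all sorted as CD27-CD11b+, Cd27 was 189.5 ± 17.8 against 97.3 ± 17.8 TPM (log2 0.97, adjusted p = 0.000527 by limma). Eomes rose too (log2 0.73, adjusted p = 4.82e-05), and Gzma, Prf1 and Ncr1 fell by 0.32, 0.33 and 0.25 on the log2 scale (adjusted p = 0.011, 0.0343 and 0.0333). Their part in the TN values was not tested. Between WT TN and TP cells 2 of 10 attenuators rose, while 1.31% of all genes were called in either direction. Ptpn6, encoding the phosphatase SHP-1, was 307 ± 46.3 TPM in TN and 151 ± 16 TPM in TP cells (log2 1.02, adjusted p = 0.00209 by limma), and Sla, encoding the adaptor SLAP, was 354 ± 24.6 and 192 ± 5.55 TPM (log2 0.88, adjusted p = 0.000152). Both rose in TN against SP cells too, by 1.11 (adjusted p = 0.00356) and 0.73 (adjusted p = 0.0038). Pik3r1 rose from 231 ± 18.6 TPM in TP to 309.9 ± 9.91 TPM in TN cells (log2 0.43, adjusted p = 0.0367), and Nck2, an adaptor that binds SLP-76, fell from 43.4 ± 0.951 to 26.1 ± 1.91 TPM (log2 -0.72, adjusted p = 0.0367). Pik3r1 and Nck2 each lost the call in all 6 fits without 1 library, while Ptpn6 and Sla kept it in TN against TP in all 12 alternatives.

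Ptpn6, Sla and Pik3r1 were also called between genotypes. In TP cells Ptpn6 was 353 ± 24.5 TPM in B2m-/- and 151 ± 16 TPM in WT mice (log2 1.23, adjusted p = 0.000239 by limma), Sla 347 ± 61.8 and 192 ± 5.55 TPM (log2 0.84, adjusted p = 0.000239), and Pik3r1 388 ± 25.6 and 231 ± 18.6 TPM (log2 0.75, adjusted p = 0.000239). Tyrobp fell there by 0.30 (adjusted p = 0.0214), a call lost in 5 of 6 fits without 1 library. In SP cells Ptpn6, Sla and Pik3r1 rose by 1.15, 0.74 and 0.59 (adjusted p = 0.000616, 0.00105 and 0.003). Ubash3b fell there by 0.49 (adjusted p = 0.0485), outside the naming rule and named after its values were seen, and it lost the call in every fit without 1 library. In the comparison of genotypes in TN cells, the 3 comparisons within B2m-/- mice, the test of the difference between genotypes and the comparison of WT SP with TP cells, 0 of the 47 list genes were called. Of all genes 0.025% to 0.716% were called there. List genes with an unadjusted p under 0.05 numbered between 0 and 13 in these 6 comparisons, against 2.77% to 10.5% of all genes. Myeloid markers summed to 61.9 to 224 TPM in B2m-/- TP cells and to at most 14.6 TPM in the other 5 groups. In WT cells they summed to 11.6 to 14.6 TPM in TP, 0 to 1.53 TPM in SP and 0.31 to 7.38 TPM in TN cells. B-cell markers summed to 10.5 to 16.9 TPM in WT TP, 2.87 to 7.54 TPM in SP and 10.1 to 11.3 TPM in TN cells. In B2m-/- cells these sums were 11.6 to 16.8 TPM in TP, 3.17 to 9.31 TPM in SP and 2.98 to 6.25 TPM in TN cells. T-cell markers summed to 12.5 to 17.6 TPM in B2m-/- TP cells and 3.35 to 4.96 TPM in WT TP cells. Among them Cd3g rose (8.2 to 11.3 against 0.06 to 2.5 TPM, log2 2.39, adjusted p = 0.0184 by limma), and Trac and Cd8a were not above 0 in B2m-/- TP cells. Their part in the TP values was not tested.

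**Figure D5:**
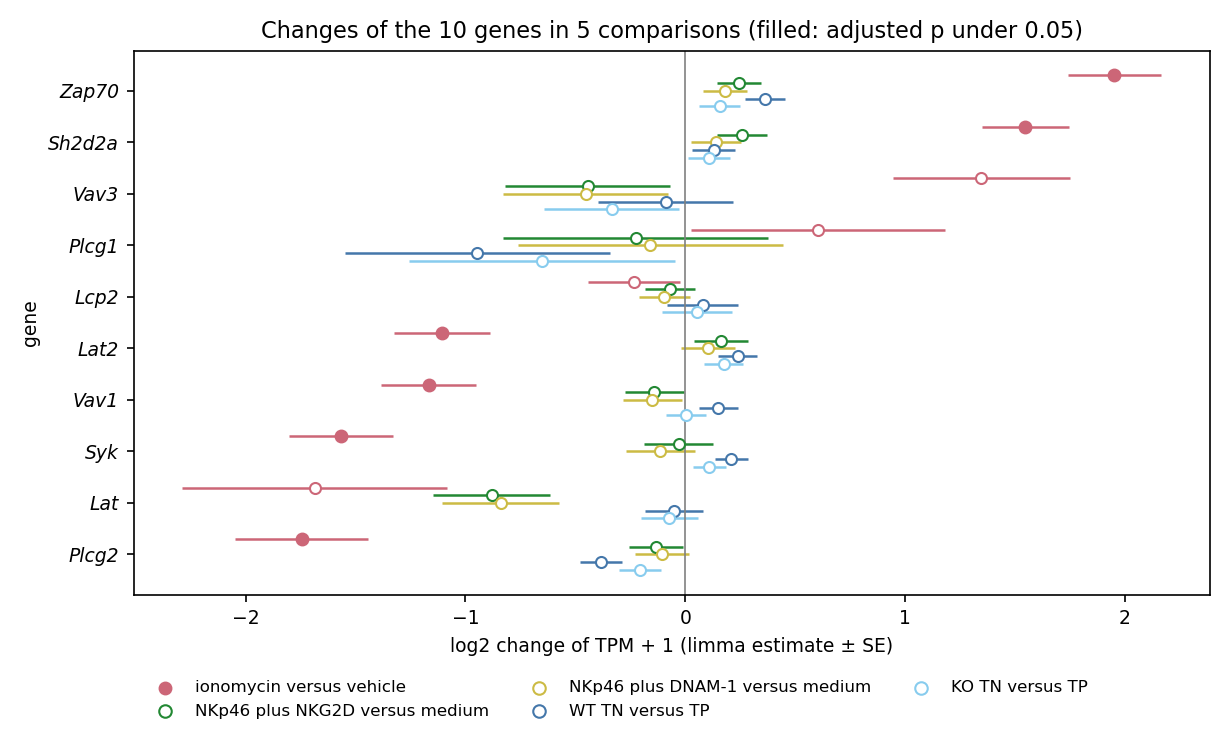
Log2 change of TPM + 1 (limma estimate, bars are SE) of the 10 genes in 5 comparisons; filled points are called at an adjusted p under 0.05. All 6 filled points belong to ionomycin against vehicle, and the other 4 comparisons have none.

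Over the 18 sorted subset libraries, the 3 genes whose log2 TPM followed Syk most closely were Ripor2 (Pearson r = 0.896), Lpgat1 (r = 0.878) and Vps37b (r = 0.856). For Zap70 they were Txndc5 (r = 0.847), Mag (r = 0.827) and Fyn (r = 0.821), the last a Src-family kinase. Syk and Zap70 followed each other with r = 0.745, and Plcg2 ran against both, with r = -0.605 to Syk and -0.592 to Zap70. These values describe 18 libraries that share 6 groups and 1 normalization.

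In NK cells from the tumours Sh2d2a was the most abundant of the 10 genes by a wide margin, at 907, 878 and 671 TPM. Lat2 followed at 225 ± 44.9 TPM (SD, n = 3), then Lcp2 at 136 ± 18.1, Vav1 at 114 ± 17.2 and Zap70 at 101 ± 25.5 TPM. Syk was 65.5, 72.6 and 48.4 TPM and Plcg2 60.3, 55.5 and 68.2 TPM, overlapping. Lat was 48.6, 48.2 and 20.4 TPM, Plcg1 13.2 ± 11.1 TPM and Vav3 12.6 ± 3.94 TPM. All libraries of the higher gene exceeded all of the next for the steps from Sh2d2a to Lat2, Lat2 to Lcp2, Zap70 to Syk and Plcg2 to Lat. The Zap70 to Syk ratio was 1.54 to 1.73. The column names of these samples carry the marks B2MKO and SP, whereas the labels give the host genotype as WT and name no receptor subset, so which hosts and which subset the values describe is uncertain. No group of their own table could be set beside them.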

How the data were processed

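The authors deposited 4 tables of TPM per gene, covering 36 samples. Per the submitters' processing notes, STAR, RSEM and the build GRCm39 were used, with no versions given; per the labels' protocols, 50 ng of RNA with an integrity score above 7 went into an mRNA library kit. TPM keep no depth, so precision comes from 3 replicates per group alone. The members, lists and tests were chosen with earlier results of these data known. The named genes were all 10 members and, per pathway list, up to 4 called genes (2 in the sorted subsets) with the largest change and no overlap. TPM were taken as log2(TPM + 1), genes whose mean was under 1 TPM were dropped, and groups were compared within each table with limma 3.58.1 (R 4.3.3), moderated with a variance trend, two-sided, with Benjamini-Hochberg adjustment over all genes tested; calls are at 0.05. The code was tested on simulated data. An exact permutation test of 3 against 3 cannot go below p = 0.1. Alternatives were a pseudocount of 0.1, no filter, median-of-ratios rescaling, no trend, a replicate block, only the compared groups, groups by title and leaving out each library. The column names repeat the replicate numbers across groups, as in WT1_TP and WT1_TN. The labels do not say whether equal numbers mark the same mouse, so it is unknown whether samples were paired. The main fits did not take the numbers as pairs, and the replicate block did. Promoter letters are from RefSeq. Some values are not reported here.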

Additional observations from a re-analysis of the deposited data

How the results depend on the processing

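With ionomycin 6 of the 10 genes were called, against 1 with no variance trend and between 0 and 7 without 1 library; the lowest count came without the third ionomycin library. Between WT TN and TP cells 0 were called, against 1 with no filter on low values, 2 with median-of-ratios rescaling, 2 with the replicate block and between 0 and 1 without 1 library. With NKp46 and DNAM-1 antibodies against medium 0 were called, and between 0 and 1 without 1 library. The block brought Zap70 (adjusted p = 0.04996) and Plcg2 (adjusted p = 0.0494) past the threshold in WT TN against TP cells and changed no other call of the 10 genes. Over all genes it raised the calls from 59 to 239 for the NKp46 and NKG2D antibodies and from 107 to 528 for the NKp46 and DNAM-1 antibodies against medium. The numbers were not stated to pair samples. Deviations from the group means correlated by 0.0104 on average over 18 same-numbered pairs of the sorted subsets, and by -0.00517 for other numbers. The averages were 0.062 and -0.031 in the ionomycin table and 0.0639 and -0.032 in the antibody table. Such deviations sum to 0 within a group. The value for other numbers is therefore tied to that for equal numbers and is no separate reference. In the sorted subsets 11 of 18 libraries were closest to their own number, with 5 of 6 in the ionomycin table and 7 of 9 in the antibody table. No alternative reversed a called gene, and the 134 uncalled pairs of gene and comparison were called in 9 of 1694 alternative fits. Rescaling shifted all genes by under 0.1 on the log2 scale. The causes of these differences were not tested, other than that fewer samples or more genes entered some fits. Unknown depth limits what can be said of the low genes Plcg1, Vav3 and Lat.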

Other observations

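Plcg1 was the most variable of the 10 genes in the sorted subsets. It ran from 0.39 TPM in 1 WT TN library to 23.4 TPM in 1 WT SP library, whose fellow replicates were at 4.43 and 5.44 TPM. In medium it was 3.08, 14.6 and 1.42 TPM, and in the tumours 4.52, 9.46 and 25.7 TPM. Lcp2 was 328 TPM in the second WT SP library and 179 and 195 TPM in its fellows.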
